A study of Mus musculus with 29 samples.

Results

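The mitochondrial carriers of the SLC25 family were examined in subcutaneous white fat of mice. Members were the genes whose symbol is Slc25a followed by digits in both deposited expression tables, 46 of 17536 shared genes, and the uncoupling protein gene Ucp1 was not among them. Carriers of this family sit, with few exceptions, in the inner mitochondrial membrane and exchange metabolites, nucleotides, cofactors and ions between the cytosol and the matrix. In fat cells they connect the cytosolic pathways that make fatty acids with the matrix pathways that burn them: citrate leaves for fatty acid synthesis, acylcarnitines enter for β-oxidation, and ADP and phosphate enter for ATP synthesis. Agonists of the β3-adrenergic receptor stimulate lipolysis and heat production in fat, which is the setting of the drug used here.

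RNA was sequenced from frozen subcutaneous fat of male and female mice that were wild type (WT) or knockout (KO) for Ncoa1, a coactivator of nuclear receptors. Treated mice were injected intraperitoneally with the β3-adrenergic agonist CL316,243 (CL) over 7 days at 0.5 mg/kg, and controls with saline (NaCl). The 8 groups held 4 mice each in Male_WT_NaCl, Male_WT_CL, Male_KO_CL and Female_WT_CL, 3 each in Male_KO_NaCl, Female_KO_NaCl and Female_KO_CL, and 2 in Female_WT_NaCl. The sources used here give no strain, age or knockout construct. Ncoa1 transcript was lower in every KO library (1.47 to 2.9 FPKM) than in every WT library (4.93 to 9.16 FPKM), and Y-linked genes matched the labelled sex in every library. Adipocyte genes were high in all groups, with summed FPKM of 8 markers from 26410 to 74990 over the 29 columns.

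Some libraries stood apart. Over 10 skeletal muscle genes, the mean log2(FPKM + 1) was 12.29 in Female_KO_NaCl replicate 2, 8.33 in Male_WT_CL replicate 4, 8.22 in Male_KO_NaCl replicate 1 and 6.13 in Male_KO_CL replicate 4, and at most 4.06 in the other 23 mice. Columns named Female_WT_NaCl replicate 3 and Male_KO_NaCl replicate 3 occur in both tables. They were treated as 1 mouse each, although both columns of a name were less alike (Spearman's rho across genes 0.958 and 0.971) than other columns of their group were to them (0.959 to 0.97 and 0.971 to 0.989). The milk protein gene Csn2 was at 14860 FPKM in the second-table column of Female_WT_NaCl replicate 3 and at 0.25 FPKM in its first-table column. Csn2 was also at 113.8 FPKM in Female_WT_NaCl replicate 1, and at most 2.09 FPKM in mice of the other groups. Its part in comparisons with Female_WT_NaCl was not tested. The table of origin was a term of the main fit, and was left out of alternative fits whose columns all came from the first table. Both Female_WT_NaCl mice have a second-table column. Fitted differences of that group therefore rest partly on the table term and can depart from the printed values. Values are FPKM, differences are fitted log2 differences of FPKM + 1 ± SE, and adjusted p is limma's moderated test with Benjamini-Hochberg adjustment over 13174 genes, called at 0.05. In whole tissue, fewer cells of a type and less RNA per cell cannot be told apart.

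The promoters of 3 members are shown: Slc25a20 and Slc25a33, because they were called in all 4 CL comparisons, and Slc25a25, because it was called lower in both WT comparisons. Each line gives 120 bases upstream of a RefSeq start in GRCm38.p6, 5′ to 3′ on the gene's strand, and capitals mark the letters TGACGTCA (the cyclic AMP response element), its core TGACG or the E-box CACGTG on either strand. The windows are chr9:108662016-108662135 (plus strand) for Slc25a20, chr4:149774268-149774387 (minus strand) for Slc25a33, and chr2:32424147-32424266 (minus strand, bases 200 to 81 before 1 of 3 annotated starts) for Slc25a25.
Slc25a20: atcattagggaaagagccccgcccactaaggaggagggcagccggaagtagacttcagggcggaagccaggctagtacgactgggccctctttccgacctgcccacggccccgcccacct
Slc25a33: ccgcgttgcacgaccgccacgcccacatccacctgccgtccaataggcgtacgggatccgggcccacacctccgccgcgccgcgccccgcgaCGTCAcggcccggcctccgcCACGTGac
Slc25a25: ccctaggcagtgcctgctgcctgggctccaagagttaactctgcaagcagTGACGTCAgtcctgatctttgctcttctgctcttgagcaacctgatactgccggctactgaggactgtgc

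Of the 46 members, 35 had a RefSeq promoter, and the 250 bases before each start were searched on both strands. TGACGTCA was found in 2 members (5.71%), Slc25a25 and Slc25a36, and in 1.77% of 27025 genes. Its core TGACG, which lies within it, was found in 28.6% of members and 19.8% of genes, and CACGTG in 20.0% of members and 6.86% of genes. The NRF1 motif was found in 5.71% of members and 4.23% of genes. The ERR letters TNAAGGTCA and the direct repeat of AGGTCA spaced by any base were in 0 members and in 1.3% and 0.0407% of genes. These matches describe letters and not bound sites.

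The citrate carrier gene dominated the family. By the median of the 8 group means, Slc25a1 stood at 1178 FPKM and made up a median of 37.1% of the FPKM summed over members. Next came the adenine nucleotide translocase Slc25a5 (288 FPKM), the phosphate carrier Slc25a3 (277), the second translocase Slc25a4 (235), the glutathione carrier Slc25a39 (209.8) and the dicarboxylate carrier Slc25a10 (165). The mouse ranges of Slc25a5, Slc25a3, Slc25a4 and Slc25a39 overlapped, so their order does not exceed their spread. In all, 6 members were above 100 FPKM, 14 lay between 10 and 100, 16 between 1 and 10, and 10 at or under 1. Their summed level was 1836 to 4838 FPKM per mouse, or 0.305% to 0.743% of a library.

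**Figure D1:**
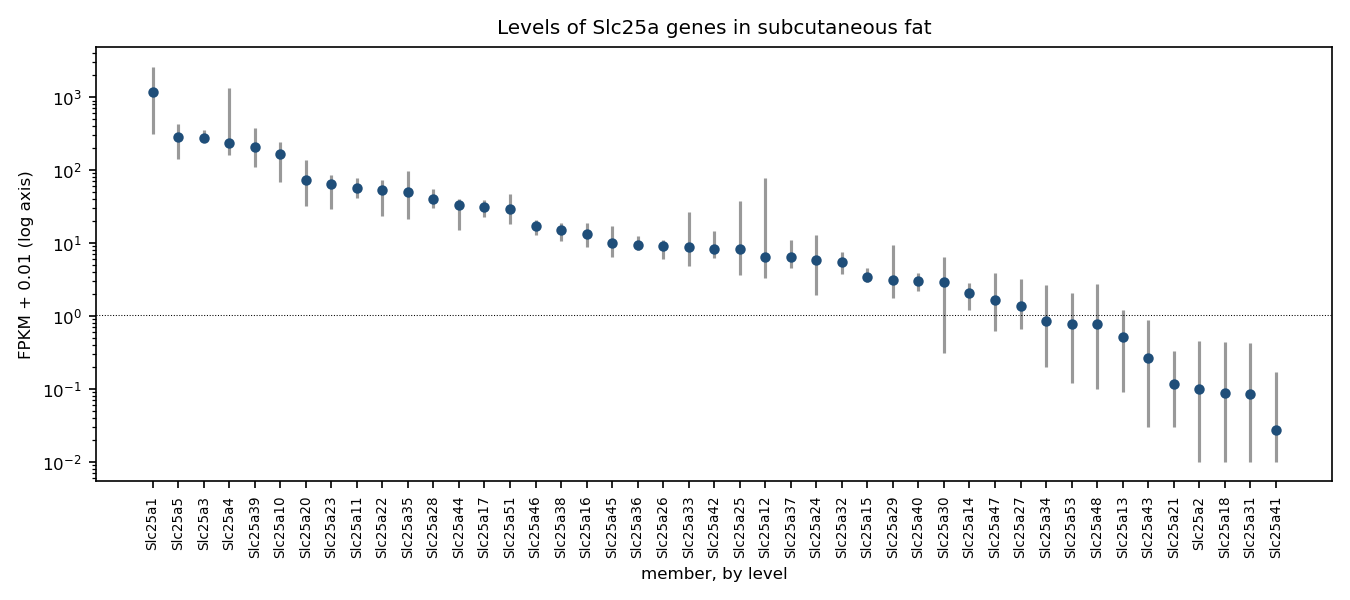
Level of members (1 is not shown) as FPKM + 0.01 on a log axis, with a point at the median of the 8 group means and a line from the lowest to the highest of 27 mice. The dotted line marks 1 FPKM; Slc25a1 is highest at 1178 FPKM, and the long upper lines of Slc25a4 and Slc25a12 end at 1321 and 76.7 FPKM in Female_KO_NaCl replicate 2.

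At least 1 FPKM in at least 3 mice was reached by 39 members, which were tested. The other 7 were Slc25a2, Slc25a13, Slc25a18, Slc25a21, Slc25a31, Slc25a41 and Slc25a43, whose highest mouse values ran from 0.16 FPKM (Slc25a41) to 1.18 FPKM (Slc25a13). With CL, 7 tested members rose and 2 fell in WT males (23.1%), where 11.3% of all tested genes passed, 5.35% higher and 5.92% lower. In WT females 4 rose and 1 fell (12.8%), where 3.56% of all genes passed, 2.01% higher and 1.55% lower. In KO females 9 rose and 1 fell (25.6%), where 7.42% of all genes passed, 5.14% higher and 2.28% lower. In KO males 2 rose and 1 fell, a share of 7.69% that is near the 7.25% of all genes, 2.1% higher and 5.15% lower. The median member difference was 0.17 in WT males, 0.21 in WT females, 0.21 in KO males and 0.12 in KO females, beside -0.05, -0.04, 0.01 and -0.02 over all tested genes. Without the 4 muscle-high libraries, 9, 3, 1 and 2 of the 39 members passed in WT males, WT females, KO males and KO females. Of all genes, 10.2%, 4.46%, 2.24% and 3.29% passed. The KO female share above thus depends on the muscle-high libraries. Markers of other cells also differed by treatment, given here over columns. Summed FPKM of 7 brown and beige fat genes was 324 to 762 for NaCl and 2917 to 5874 for CL in WT males, 556 to 1912 and 4449 to 6748 in WT females, 321 to 757 and 1445 to 2290.0 in KO males, and 218 to 1107 and 1753 to 2291 in KO females, with no overlap. The value of 1107 came from Female_KO_NaCl replicate 2, the library highest in muscle genes, where Ucp1 was at 0.1 FPKM. Its group's other mice were at 218 and 302, and the part of muscle in this sum was not tested. Summed FPKM of 7 macrophage genes was lower with CL, at 739 to 1064 for NaCl and 418 to 675 for CL in WT males, 780 to 2779 and 349 to 739 in KO males, and 1577 to 2617 and 821 to 1421 in KO females. In WT females it was 486 to 1612 and 503 to 707, where the second-table column of Female_WT_NaCl replicate 3 was the one at 486. The adipocyte sum did not overlap in KO females, at 26410 to 43700 for NaCl and 45040 to 57930 for CL. The part of these differences in the carrier results was not tested. Over the 4 comparisons, 16 members changed in at least 1, Slc25a20 and Slc25a33 in all 4, and 23 in none.

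**Figure D2:**
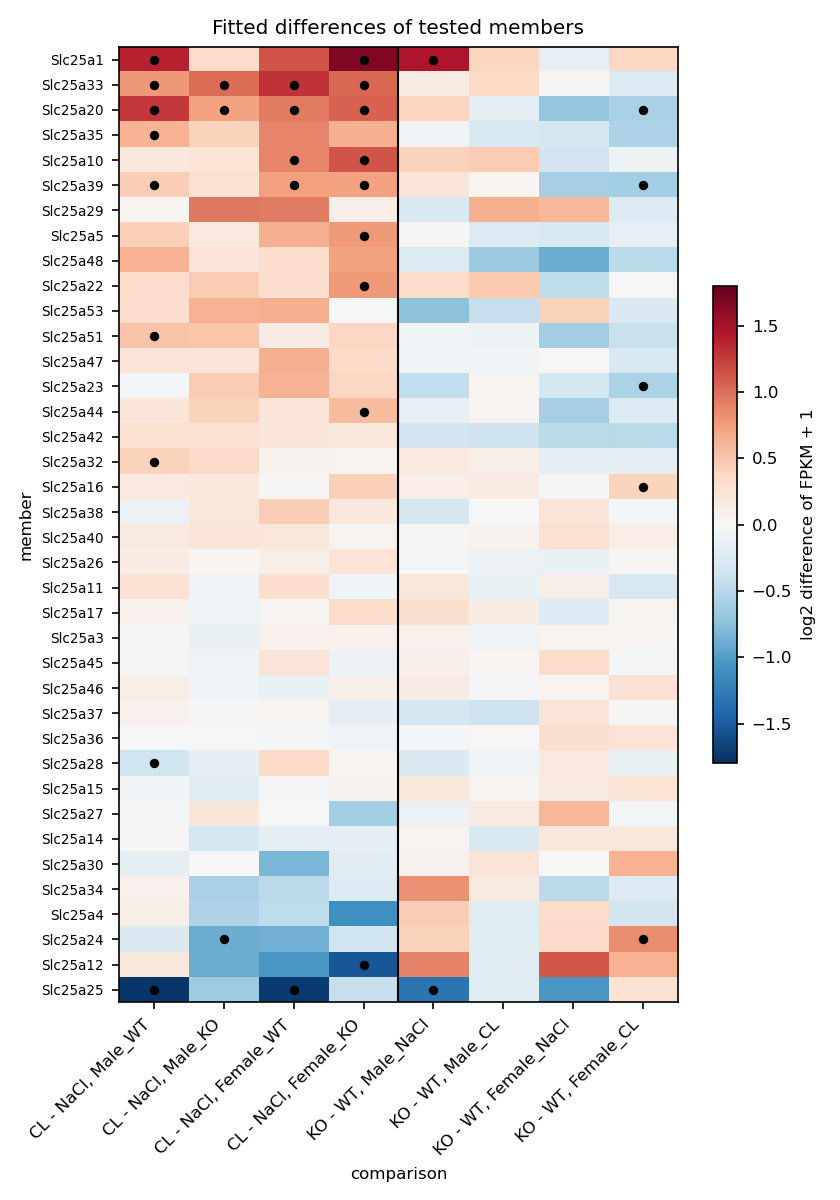
Fitted log2 differences of FPKM + 1 (colour) for tested members (rows; 1 member is not shown) in the 4 CL comparisons (left of the line) and the 4 KO comparisons (right), with a dot where adjusted p is under 0.05. Slc25a20 and Slc25a33 have a dot in every CL column, and Slc25a25 has one in both WT columns of CL and in NaCl males of KO.

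Slc25a20 encodes the carnitine-acylcarnitine carrier, which brings long-chain acylcarnitines into the matrix for β-oxidation (chr9:108662136-108684642 in GRCm38). In WT males it was at 42.9, 37.6, 42.1 and 37.7 FPKM with NaCl and 97.8, 86.7, 91.8 and 119 with CL. In WT females the first mouse was at 55.1 with NaCl and the second at 50.1 and 72.9 in its columns, against 109, 132, 137 and 133 with CL. Every CL library lay above every NaCl library in both sexes. The differences were 1.27 ± 0.12 in WT males (adjusted p = 4.54e-07) and 0.94 ± 0.19 in WT females (adjusted p = 0.0106). In KO males the NaCl values were 56.3, 50.4 and, for the repeated name, 38.0 and 40.0 FPKM, and the CL values 77.4, 99.9, 86.1 and 85.7. In KO females they were 32.6, 40.3 and 41.0 with NaCl and 101, 82.4 and 73.3 with CL. These groups did not overlap either, with differences of 0.72 ± 0.15 (adjusted p = 0.00605) and 1.06 ± 0.15 (adjusted p = 0.000182). Only the WT female call was lost when 1 library was left out, at an adjusted p of 0.0637 without Female_WT_NaCl replicate 3. The rise remained called in all 4 comparisons without the muscle-high libraries. With only the groups compared, it did not pass in WT females, KO males (0.76, adjusted p = 0.196) or KO females (1.04, adjusted p = 0.222).

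Slc25a33, a pyrimidine nucleotide carrier (chr4:149744036-149774267), overlaps an antisense gene, Gm13068, by 1090 bases, and the sources used here do not say whether counting used strand. In WT males it was at 5.86, 5.37, 6.31 and 6.32 FPKM with NaCl and 10.0, 9.86, 9.93 and 14.8 with CL. In WT females it was at 4.82 and, for the repeated name, 6.1 and 6.4 with NaCl, and 17.3, 16.0, 14.1 and 20.5 with CL. All CL libraries lay above all NaCl libraries, by 0.79 ± 0.22 in WT males (adjusted p = 0.0205) and 1.30 ± 0.33 in WT females (adjusted p = 0.0346). KO males had 6.61, 5.34 and, for the repeated name, 6.29 and 6.77 FPKM with NaCl and 9.68, 11.5, 14.1 and 26.5 with CL, and KO females 5.75, 6.88 and 5.44 with NaCl and 19.5, 12.5 and 11.1 with CL. These groups were separate as well, by 1.00 ± 0.27 (adjusted p = 0.0258) and 1.03 ± 0.26 (adjusted p = 0.0213). Each call was lost without some single library of its groups: Male_WT_CL replicate 4 (0.0908) or Male_WT_NaCl replicate 2 (0.0635); Female_WT_NaCl replicate 1 (0.139) or 3 (0.0991) or Female_WT_CL replicate 2 (0.0598); Male_KO_NaCl replicate 1 (0.142) or 3 (0.0523) or Male_KO_CL replicate 4 (0.0527); Female_KO_CL replicate 1 (0.133) or Female_KO_NaCl replicate 2 (0.0539) or 3 (0.0718), all as adjusted p. Without the muscle-high libraries the KO male difference was 0.76 with an adjusted p of 0.141.

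Slc25a1 exports citrate, the source of cytosolic acetyl-CoA (chr16:17925211-17928219). WT males had 485, 328, 316 and 499.6 FPKM with NaCl and 1157, 1011, 758 and 1337 with CL, with no overlap. KO females had 814, 498 and 928 with NaCl and 2619, 1898 and 1869 with CL, again with no overlap. The rise was 1.39 ± 0.27 in WT males (adjusted p = 0.00169) and 1.66 ± 0.33 in KO females (adjusted p = 0.00381), and the latter became 1.31 with an adjusted p of 0.087 without the muscle-high libraries. In WT females the NaCl columns held 912 and, for the repeated name, 490.3 and 1544, and the CL mice 1181, 2407, 2137 and 1139. These ranges overlapped, and the difference was 1.14 ± 0.41 (adjusted p = 0.118). The column at 1544 is the one with the highest Csn2, whose part in this was not tested. KO males were at 1090.2, 1599.9 and, for the repeated name, 721 and 1643 with NaCl, against 2075, 1371, 1065 and 1154 with CL, a difference of 0.32 ± 0.34 (adjusted p = 0.604). Whether CL acted differently by genotype was tested directly and did not pass in males (-1.07 ± 0.43, adjusted p = 0.343) or females (0.53 ± 0.47, adjusted p = 0.927).

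The other dicarboxylate carriers were the succinate and malate carrier Slc25a10 and the oxoglutarate carrier Slc25a11. Slc25a10 was at 115, 67.7 and 108 FPKM in KO females with NaCl and 205, 187 and 176 with CL, without overlap, a rise of 1.13 ± 0.19 (adjusted p = 0.00121). That value was 0.81 with an adjusted p of 0.0577 without the muscle-high libraries. In WT females it was at 128 and, for the repeated name, 101 and 207 with NaCl and 144, 223, 242 and 213 with CL. These ranges overlapped, and the call (0.89 ± 0.24, adjusted p = 0.046) was lost without either NaCl mouse (0.214 and 0.0675) or without CL replicate 2 (0.094) or 3 (0.0823). It was also lost without the muscle-high libraries (0.65, adjusted p = 0.145), with quantile normalization (0.0745), with the replicate block (0.101) and without the filter on low values (0.0509). The fitted difference rests partly on the table term, and over the alternatives it ran from 0.299 to 1.16. Slc25a11 passed in no CL comparison, with differences from -0.07 to 0.32.

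**Figure D3:**
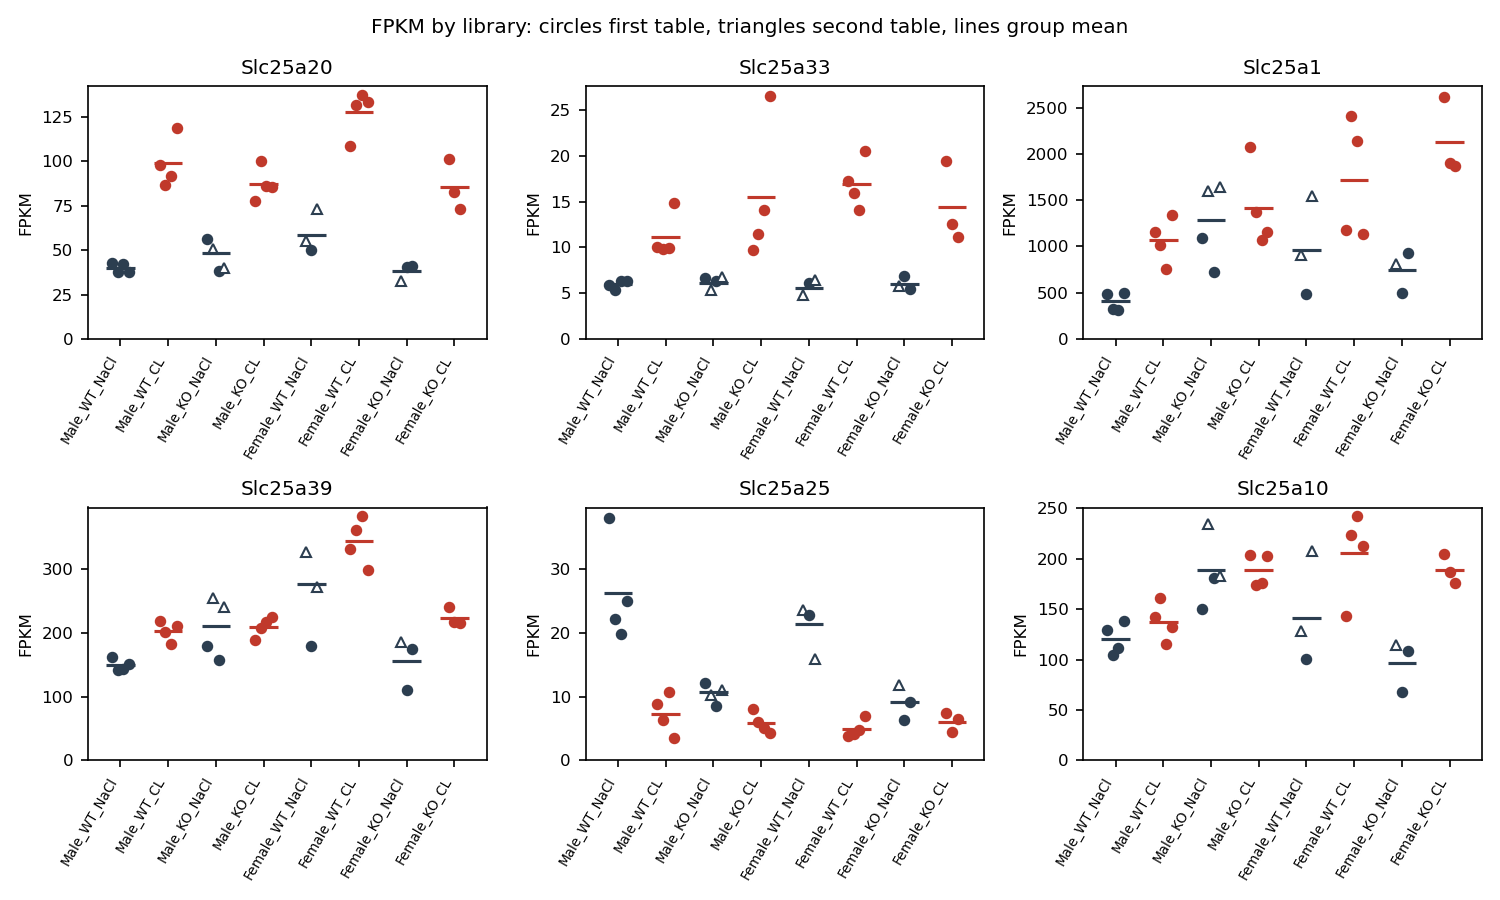
FPKM of 6 members in every library of the 8 groups, NaCl in dark blue and CL in red, with filled circles for the first table, open triangles for the second and a line at the group mean over mice. Slc25a20 and Slc25a33 show CL libraries above NaCl libraries in all 4 pairs, Slc25a25 in WT males is at 19.9 to 38.0 FPKM with NaCl and at most 10.7 with CL, and Slc25a10 rises without overlap in KO females.

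Slc25a25, a calcium-regulated carrier that exchanges ATP-magnesium for phosphate (chr2:32414487-32451470), was the most strongly lowered member in WT mice. It overlaps Naif1 on the other strand by 989 bases. WT males had 38.0, 22.2, 19.9 and 25.1 FPKM with NaCl and 8.81, 6.4, 10.7 and 3.58 with CL. WT females had 23.7 and, for the repeated name, 22.8 and 15.9 with NaCl, and 3.81, 4.18, 4.86 and 7.01 with CL. Neither pair overlapped, and the fall was -1.75 ± 0.26 in males (adjusted p = 0.000101) and -1.73 ± 0.40 in females (adjusted p = 0.0237). The female call was lost without Female_WT_NaCl replicate 1 (adjusted p = 0.0914) or 3 (0.0828). KO mice with NaCl were at 12.1, 10.3 and, for the repeated name, 8.54 and 11.0 in males and 11.9, 6.43 and 9.25 in females, and with CL they were at 8.06, 6.12, 5.17 and 4.33 and at 7.41, 4.49 and 6.46. Their CL differences were -0.65 ± 0.32 (adjusted p = 0.237) and -0.42 ± 0.32 (adjusted p = 0.508). The genotype by treatment term was 1.10 ± 0.41 in males (adjusted p = 0.308) and 1.31 ± 0.45 in females (adjusted p = 0.927), so a difference in response between genotypes did not pass.

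Among the other 5 tested carriers for adenine nucleotides and phosphate, 2 changed with CL. Slc25a5 rose in KO females, from 201, 142 and 274 FPKM to 364, 318 and 326 (0.77 ± 0.18, adjusted p = 0.0114), a call lost without Female_KO_NaCl replicate 2 (0.44, adjusted p = 0.129), Female_KO_CL replicate 1 (adjusted p = 0.0617) or the muscle-high libraries (0.32, adjusted p = 0.287). Its CL values also lay above all NaCl values in WT males and WT females, where the differences of 0.44 and 0.63 had adjusted p of 0.0579 and 0.107. Without the muscle-high libraries those differences were 0.42 (adjusted p = 0.0221) and 0.30 (adjusted p = 0.338). Slc25a24, a related ATP-magnesium carrier, fell in KO males, from 7.65, 7.48 and, for the repeated name, 5.32 and 6.68 to 4.35, 4.17, 3.22 and 2.51 (-0.89 ± 0.25, adjusted p = 0.0325). That call was lost without Male_KO_NaCl replicate 1 (0.181) or 2 (0.0628) or Male_KO_CL replicate 3 (0.0654) or 4 (0.094), and without the muscle-high libraries (0.21). Slc25a3 stayed between 243 and 357 FPKM in every library, with CL differences from -0.12 to 0.08.

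Slc25a4, the translocase of heart and skeletal muscle, and Slc25a12, an aspartate-glutamate carrier of muscle and brain, were highest in the library with the highest muscle genes. Slc25a4 was at 1321 FPKM in Female_KO_NaCl replicate 2 and at 162 to 314 in all other columns. Slc25a12 was at 76.7 in that library and at 3.33 to 11.1 in all others. It was at 7.8, 9.7 and 4.83 in the muscle-high Male_WT_CL replicate 4, Male_KO_NaCl replicate 1 and Male_KO_CL replicate 4. Those values lay below the 10.5 and 11.1 of Female_KO_NaCl replicates 1 and 3, whose muscle means were 0.806 and 0.485. The call of Slc25a12 in KO females (-1.53 ± 0.45, adjusted p = 0.0432) had a difference of -0.27 and an adjusted p of 0.69 without the muscle-high libraries, and it was also lost without Female_KO_CL replicate 1 (0.157), 2 (0.0943) or 3 (0.0691). For Slc25a4 the KO female difference of -1.11 became 0.06. In WT females all 4 CL mice (232 to 270) lay above all NaCl columns (199 to 212), yet its fitted difference was -0.46 ± 0.51, and it was 0.12 ± 0.12 without the muscle-high libraries. Acta1, the skeletal muscle actin gene, reached 14860 FPKM in Female_KO_NaCl replicate 2 and at most 868 in any other mouse.

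**Figure D4:**
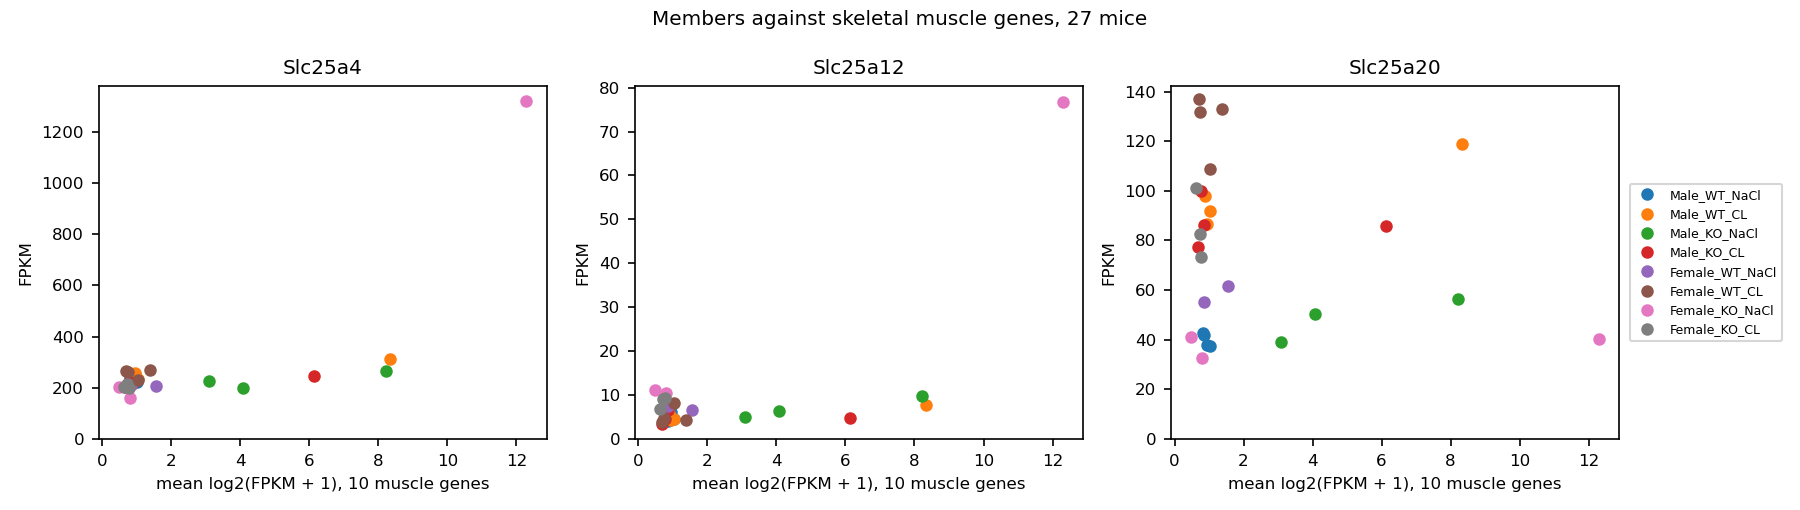
FPKM of Slc25a4, Slc25a12 and Slc25a20 against the mean log2(FPKM + 1) of 10 skeletal muscle genes in 27 mice, coloured by group. Female_KO_NaCl replicate 2, at 12.29 on the muscle axis, is far above the rest for Slc25a4 (1321 FPKM) and Slc25a12 (76.7) and within its group for Slc25a20 (40.3).

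The mitochondrial NAD carrier Slc25a51 rose in WT males from 27.6, 22.8, 26.2 and 24.9 FPKM to 36.6, 31.9, 33.2 and 46.2 (0.51 ± 0.13, adjusted p = 0.0116; 0.0597 without Male_WT_CL replicate 4). The folate and FAD carrier Slc25a32 rose in WT males from 3.69 to 4.78 FPKM up to 5.53 to 7.39 FPKM (0.41 ± 0.10, adjusted p = 0.0118; 0.0601 without Male_WT_CL replicate 4 and 0.0557 without Male_WT_NaCl replicate 2). Neither passed in another CL comparison. The coenzyme A carrier Slc25a42 had differences of 0.20 to 0.28 and passed in none of the 4.

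Of 8 tested amino acid and glutathione carriers, Slc25a39, needed for glutathione import into mitochondria (chr11:102402969-102408675), rose most often. WT males had 161, 141, 142 and 151 FPKM with NaCl and 219, 200.4, 183 and 210.1 with CL, without overlap (0.44 ± 0.12, adjusted p = 0.0154; 0.0545 without CL replicate 1 and 0.0509 without NaCl replicate 2). KO females had 185, 110.1 and 174 with NaCl and 239, 216 and 215 with CL, also without overlap (0.72 ± 0.14, adjusted p = 0.00366; 0.0515 without NaCl replicate 2 and 0.0904 without the muscle-high libraries). WT females had 326 and, for the repeated name, 179 and 272 with NaCl and 331, 359.9, 382 and 298 with CL. Those ranges overlapped, and the call (0.73 ± 0.18, adjusted p = 0.0289) was lost without Female_WT_NaCl replicate 3 (0.229) or Female_WT_CL replicate 2 (0.0598) or 3 (0.0523). It was also lost without the muscle-high libraries (0.63, adjusted p = 0.0563), with quantile normalization (0.49, adjusted p = 0.0777) and with the replicate block (0.0677). The fitted difference rests partly on the table term, and over the alternatives it ran from 0.49 to 1.19.

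In KO females with CL the glutamate carrier Slc25a22 rose from 43.6, 23.1 and 40.2 FPKM to 57.5, 53.9 and 53.0 (0.77 ± 0.17, adjusted p = 0.0098), and the difference was 0.46 (adjusted p = 0.114) without Female_KO_NaCl replicate 2 and 0.52 (adjusted p = 0.0991) without the muscle-high libraries. Slc25a44, which carries branched-chain amino acids and is known for that role in brown fat, rose in KO females from 23.1, 15.0 and 28.3 to 37.7, 28.8 and 28.9 (0.57 ± 0.16, adjusted p = 0.0375). Its groups did not overlap there, but the difference was 0.25 (adjusted p = 0.338) without Female_KO_NaCl replicate 2, and the call was also lost without Female_KO_CL replicate 1 (0.186) or 2 (0.0614) and without the muscle-high libraries (0.21, adjusted p = 0.512).

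Of the remaining members, the iron carrier Slc25a28 fell in WT males from 45.3 to 51.9 FPKM down to values of at most 42.9 FPKM (-0.36 ± 0.11, adjusted p = 0.0297), and the call was lost without any of 6 of the 8 libraries (adjusted p up to 0.125, without Male_WT_CL replicate 4). Slc25a35, whose cargo is not firmly known, rose in WT males from 33.3 to 54.0 up to 60.4 to 73.6 (0.63 ± 0.20, adjusted p = 0.0455). It overlaps Rangrf by 1882 bases on the other strand, and the call was lost without any of 6 of the 8 libraries (adjusted p up to 0.164, without Male_WT_NaCl replicate 2) and without the muscle-high libraries (0.0862). None of the 3 uncoupling protein relatives, Slc25a14, Slc25a27 and Slc25a30, nor the outer membrane member Slc25a46, passed in any CL comparison by limma; Slc25a34, another orphan, had group means of 0.392 to 1.23 FPKM and also passed in none.

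For knockout against wild type, 1 member was higher and 2 lower in NaCl males (7.69%), where 7.34% of all genes passed, 3.18% higher and 4.16% lower. In NaCl females 0 passed by limma, against 0.509% of all genes, and 11 had an unadjusted p under 0.05. The share of all genes under that unadjusted cut was not computed, so the 11 is not read as a result about the members. In CL males 1 was lower (2.56%), where 1.94% of all genes passed, 1.1% lower. In CL females 2 were higher and 4 lower (15.4%), where 12.6% of all genes passed, 9.01% higher and 3.63% lower. In either direction these shares are near those of all genes in both male comparisons and in CL females, but in CL females 10.3% of members were lower and 5.13% higher. The KO comparisons within a treatment use the same mice as the CL comparisons.

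In NaCl males, Slc25a1 was 1.46 ± 0.34 higher in KO than in WT (adjusted p = 0.0122), and all 4 KO columns, at 721 FPKM or more, lay above the WT maximum of 499.6. The call was lost without Male_KO_NaCl replicate 1 (0.0817) or the muscle-high libraries (1.67, adjusted p = 0.063), within the first table (1.15, adjusted p = 0.122) and with only the groups compared (1.36, adjusted p = 0.073). In the same mice Slc25a25 was lower in KO (-1.32 ± 0.32, adjusted p = 0.0169), with no overlap. That call was lost within the first table (-1.25, adjusted p = 0.0636) and with only the groups compared (-1.08, adjusted p = 0.127). Its NaCl female difference was -1.05 ± 0.36 (adjusted p = 0.269). Summed macrophage FPKM was 2124 and 2297 in Male_KO_NaCl replicates 2 and 1 and 780 and 2779 in the first-table and second-table columns of replicate 3, against 739 to 1064 in Male_WT_NaCl. The adipocyte sum was 63420 to 74990 in the KO columns and 41460 to 52110 in WT, and the sum of 10 skeletal muscle genes was 38.5 to 3820 and 13.2 to 21.3, both without overlap. The part of these in the carrier differences was not tested.

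In CL females, Slc25a39 was lower in KO (215 to 239 against 298 to 382 FPKM; -0.61 ± 0.12, adjusted p = 0.00665), as were Slc25a20 (-0.58 ± 0.13, adjusted p = 0.0099) and the ATP-magnesium carrier Slc25a23 (44.1 to 55.8 against 66.6 to 84.8; -0.57 ± 0.14, adjusted p = 0.0165), each without overlap. Without Female_KO_CL replicate 3 the adjusted p was 0.072 for Slc25a20 and 0.0974 for Slc25a23, which was also at 0.0528 without Female_WT_CL replicate 3. Slc25a24 was higher (6.1 to 7.4 against 1.94 to 4.31; 0.84 ± 0.22, adjusted p = 0.0175), a call lost without Female_KO_CL replicate 2 (0.0512) or 3 (0.0873) or Female_WT_CL replicate 2 (0.0591). Slc25a16 was higher with overlapping ranges (0.40 ± 0.13, adjusted p = 0.0492), and the call was lost without any of 6 of the 7 libraries (adjusted p up to 0.216, without Female_KO_CL replicate 1). Summed FPKM of 7 brown and beige fat genes was 1753 to 2291 in Female_KO_CL and 4449 to 6748 in Female_WT_CL. The sum of 7 macrophage genes was 821 to 1421 and 503 to 707 in the same order, also without overlap. Mean Ucp1 was 14.2 ± 3.68 FPKM (SD, n = 3) and 363 ± 155 FPKM (SD, n = 4). The part of these in the carrier differences was not tested. All 4 interaction terms, genotype by treatment in each sex and sex by treatment in each genotype, had 0 calls among the 39 members by limma, against 0.0531%, 0.0228%, 0.0228% and 0.0304% of all genes, and 5, 2, 4 and 6 members had an unadjusted p under 0.05. The shares of all genes under that unadjusted cut were not computed, so these unadjusted counts are not read as results.

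Between sexes, 2 members passed in WT NaCl (5.13%, against 3.34% of all genes), 3 in KO NaCl (7.69%, against 7.77%), 5 in WT CL (12.8%, against 17.9%) and 2 in KO CL (5.13%, against 11%). Summed FPKM of 10 mammary epithelium genes was 0.24 to 12.35 in male columns and 141.9 to 48300 in female columns. In WT NaCl, Ucp1 was at 137, 24.9 and 224 FPKM in the female columns and at 0.29 to 3.41 FPKM in males. The brown and beige fat sum there was 556 to 1912 in female columns and 324 to 762 in males, with overlap. The part of these in the carrier differences was not tested. Slc25a39 in WT CL was higher in females (298 to 382 FPKM) than in males (183 to 219), by 0.75 ± 0.12 (adjusted p = 0.000248). The uncoupling protein relative Slc25a30 was lower in females with CL, at 0.61, 0.3, 1.09 and 2.31 FPKM against 3.27, 2.68, 3.89 and 4.48 in WT (-1.22 ± 0.24, adjusted p = 0.00226). In KO it was at 1.64, 1.66 and 2.86 against 2.47, 4.03, 6.43 and 5.23, where the ranges overlapped (-0.83 ± 0.26, adjusted p = 0.0438). Slc25a10 in KO NaCl was lower in females (67.7 to 115 FPKM) than in males (149.8 to 234; -0.89 ± 0.18, adjusted p = 0.00341; 0.0734 without Female_KO_NaCl replicate 1). The remaining calls were Slc25a20 (0.70) and Slc25a28 (-0.64) in WT NaCl, Slc25a22 (-0.55) and Slc25a27 (0.85) in KO NaCl, Slc25a10 (0.56), Slc25a11 (0.31) and Slc25a20 (0.37) in WT CL, and Slc25a24 (0.76) in KO CL. In the first table alone, which holds 1 column of Female_WT_NaCl, the WT NaCl differences were 0.32 for Slc25a20 and -0.31 for Slc25a28. In WT NaCl, Slc25a20 was lost without any of 5 of the 6 libraries (adjusted p up to 0.209, without Female_WT_NaCl replicate 3), as was Slc25a28 (up to 0.179, without the same library). Slc25a22 was lost without any of 4 libraries (adjusted p up to 0.273, without Male_KO_NaCl replicate 1), Slc25a27 without Female_KO_NaCl replicate 1 (0.37) or Male_KO_NaCl replicate 3 (0.0536), Slc25a10 in WT CL without any of 3 (up to 0.0801, without Male_WT_CL replicate 3), Slc25a11 without any of 6 (up to 0.133, without Female_WT_CL replicate 2), Slc25a20 in WT CL without any of 6 (up to 0.122, without Male_WT_CL replicate 2), Slc25a24 without any of 5 (up to 0.121, without Female_KO_CL replicate 3), and Slc25a30 in KO CL without any of 5 (up to 0.16, without Female_KO_CL replicate 2). Without the muscle-high libraries, Slc25a20 (0.135) and Slc25a28 (0.0689) in WT NaCl, Slc25a22 in KO NaCl (0.33), and Slc25a24 (0.0887) and Slc25a30 (0.117) in KO CL were lost as well, all as adjusted p.

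Other genes of mitochondrial transport were read beside the carriers. Among 23 other mitochondrial transporters, 7 rose in WT males, 3 rose in WT females, 2 rose and 1 fell in KO males, and 7 rose and 1 fell in KO females. These are shares of 30.4%, 13.0%, 8.7% and 30.4% higher, beside 5.35%, 2.01%, 2.1% and 5.14% of all genes, and the 1 lower in KO males and in KO females is 4.35%, beside 5.15% and 2.28%. Letm1, an ion exchanger of the inner membrane, rose in all 4 (0.96, 0.99, 0.88 and 1.04), and the pyruvate carrier subunit Mpc1 rose in WT males (1.53 ± 0.19, adjusted p = 1.75e-05) and KO females (1.30 ± 0.24, adjusted p = 0.00204). Of 16 genes of the import machinery that inserts carriers, 1, 3, 0 and 6 rose in the same order (6.25%, 18.8%, 0% and 37.5%, beside the same shares of all genes) and 0 fell by limma, with 3, 7, 3 and 7 at an unadjusted p under 0.05 in either direction. Among them was the small chaperone Timm9, which rose in WT males (0.38), WT females (0.71) and KO females (0.57). For the unadjusted counts of import genes, the share of all genes under that cut was not computed. Of 24 enzymes that use what the carriers move, 10, 4, 4 and 10 rose (41.7%, 16.7%, 16.7% and 41.7%, beside the same shares of all genes). The counts that fell were 1, 0, 0 and 3, beside 5.92%, 1.55%, 5.15% and 2.28% of all genes. The last of these counts is 12.5% of the list. None of these lists was refitted without the muscle-high libraries, so the part of muscle in these results was not tested. Cpt2, which transfers the acyl groups that Slc25a20 brings in to coenzyme A, rose in all 4 (0.99, 0.91, 0.60 and 1.14), as did Bckdha, a subunit of the branched-chain ketoacid dehydrogenase (1.05, 1.16, 0.99 and 1.33). Nnt, the inner membrane enzyme that makes mitochondrial NADPH and that some C57BL/6 substrains lack, was higher in KO in all 4 genotype comparisons (1.14 to 1.70, adjusted p from 0.000638 to 0.00159).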

How the data were processed

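RNA-seq values were deposited by the authors as FPKM, which scales fragments by transcript length and mapped reads, in 2 separately made tables of 24 and 5 columns, all of which were used. Alignment tools were HISAT2 2.0.4 with GRCm38/mm10, per the submitters' processing notes; the sources used here do not name the FPKM program or annotation. The absolute depth is unknown; the worth of 1 read, estimated from low values, differed within a table by 0.909 to 1.127, and the estimate is rough. Samples were grouped by title. Of 29 sample records, 2 (Female_WT_NaCl replicate 2 and Male_KO_NaCl replicate 4) have no column and are not analysed here, and 2 names occur in both tables, whose log2 values were averaged, which leaves 27 mice. In the second table are Male_KO_NaCl replicates 2 and 3, Female_WT_NaCl replicates 1 and 3, and Female_KO_NaCl replicate 1. The labels number the replicates without naming the animals; they are called mice here, and p-values measure only the spread between these samples, which may be technical.

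Genes at 1 FPKM or more in at least 3 mice were tested as log2(FPKM + 1), on which the change of low genes is understated, with limma 3.58.1 (R 4.3.3, trend=TRUE): 8 group means plus the table (0.5 for averaged mice), 18 residual and 2.92 prior degrees of freedom, 16 comparisons, two-sided. The procedure was tested on simulated data with log2 changes added. For CL in WT males, WT females, KO males and KO females, 52%, 18%, 18% and 26% of changes of 0.5 were recovered. For changes of 1 it was 72%, 40%, 62% and 62%, and for changes of 2 it was 94%, 90%, 92% and 96%. A member that did not pass may therefore still have changed. Every-mouse values were given for the largest changes per comparison and for a fixed set of members; others were given by range. The members, lists and rules were chosen with earlier results of these data known. Motifs were searched in RefSeq promoter windows (GRCm38.p6), and gene positions and overlaps come from GRCm38 annotation. Counts cover all members and list genes, but the values of 1 member and 1 list gene are not reported here.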

Additional observations from a re-analysis of the deposited data

Results flagged for a closer look

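In groups of 4 mice, 4 of 100 checks over 25 members had 1 mouse far from the other 3 by Dixon's criterion, and chance alone gives about 1 in 20. Slc25a33 was at 14.81 FPKM in Male_WT_CL replicate 4 and at 9.86 to 10.0 in the other 3 mice; this library is 1 of the 4 with high muscle genes. Slc25a11 was at 78.06 FPKM in Female_WT_CL replicate 2 and at 66.06 to 67.28 in the others. Slc25a34 was at 0.22 FPKM in Male_WT_NaCl replicate 4 against 0.44 to 0.47, and at 1.29 FPKM in Male_KO_CL replicate 2 against 0.41 to 0.56.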

How the results depend on the processing

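The 49 member calls gave 779 values under alternatives, of which 559 kept the call, 220 kept the direction without passing and 0 changed sign. Of the 49 calls, 34 did not pass with only the groups compared, 20 without the muscle-high libraries, 15 in the first table alone, 10 with the replicate block, 9 with quantile normalization, 8 with the first-table column of repeated names, 7 with each column as its own sample, 5 without the filter and 1 with a pseudocount of 0.1. Counts of members past the threshold moved by over 1.5 times as follows. For CL in WT females, the count of 5 became 3 with quantile normalization, 3 with the replicate block, 3 without the muscle-high libraries, 10 with each column as its own sample, 11 with the first-table column of repeated names (an alternative chosen after seeing the data) and 0 with only the groups compared. The first table holds 1 column of Female_WT_NaCl, so counts in that table alone are not given for comparisons with this group. Leaving out either Female_WT_NaCl mouse likewise leaves 1 mouse in the group. For CL in KO males, 3 became 5 with quantile normalization, 7 with each column alone, 0 with only the groups compared and 1 without the muscle-high libraries. For CL in KO females, 10 became 0 with only the groups compared and 2 without the muscle-high libraries. For KO in NaCl males, 3 became 0 in the first table alone, 1 with only the groups compared and 1 without the muscle-high libraries. For KO in NaCl females, 0 became 1 with quantile normalization; in CL males, 1 became 2 without the filter; in CL females, 6 became 1 with only the groups compared and 10 without the muscle-high libraries. For sex in WT NaCl, 2 became 0 with each column alone, with only the groups compared, with the first-table column and without the muscle-high libraries. For sex in KO NaCl, 3 became 0 with only the groups compared. For sex in WT CL, 5 became 2 with quantile normalization, 3 in the first table alone, 3 with only the groups compared, 3 with the first-table column and 9 without the muscle-high libraries. For sex in KO CL, 2 became 1 with a pseudocount of 0.1, without the filter, in the first table alone, with only the groups compared and with the replicate block, and 0 without the muscle-high libraries. The cause of these shifts was not tested; fits on only the groups compared hold fewer mice.

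With 1 library left out, counts ranged from 4 to 8 (CL, WT males), 0 to 7 (WT females), 1 to 5 (KO males) and 3 to 13 (KO females); for KO, from 1 to 4 and 0 to 2 (NaCl males and females), 1 to 2 and 2 to 8 (CL); for sex, from 0 to 1 and 0 to 9 (WT and KO, NaCl) and 2 to 6 and 0 to 3 (CL); and for interactions 0 to 0, except sex by treatment in KO, 0 to 5. Replicate numbers were not used to pair mice in the main fit. Over 83 pairs with the same number the mean correlation of deviations was -0.02 (range -0.82 to 0.78). It was 0.01 (range -0.86 to 0.82) over 234 pairs with different numbers. With ranges this wide, the means cannot show whether the numbers carry a pairing. With the replicate block, counts were 8, 3, 2 and 9 for CL (WT males, WT females, KO males, KO females). Quantile normalization moved the median difference over all genes from 0.10 to -0.06 for sex in KO NaCl and from 0.09 to -0.04 for sex in KO CL. FPKM carries no read counts, so the error of members under 1 FPKM cannot be stated.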
